A study of Mus musculus with 22 samples.

Results

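The 8 genes described here, Acat2, Hmgcs1, Mvk, Pmvk, Mvd, Idi1, Fdps and Ggps1, encode enzymes of the mevalonate arm, which leads from acetoacetyl-CoA to farnesyl and geranylgeranyl diphosphate. They were chosen by symbol among the 46603 genes of the deposited count table, and all 8 passed the filter on low counts that left 21183 genes. The measurements are bulk RNA-seq of CD8+ T cells, with 22 libraries made from 8 mice. Naive cells were purified from lymph nodes and spleen by depleting unwanted cells on magnetic beads. They were sequenced directly (naive), or cultured for 24 h or 48 h with anti-CD28 in solution on plates coated with anti-CD3, a pair of antibodies that replaces antigen and costimulation.

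Knock-in (KI) and wt mice came from the line Tcaim KI Cd4Cre, with the genotype fields hocre and wtcre, and gave 3 libraries each naive, at 24 h and at 48 h. Libraries labelled KO came from the line Tcaim KO Cd4Cre, genotype field hocre, and gave 2 naive and 2 at 48 h. Both line names carry Cd4Cre, and the labels do not explain hocre or wtcre. Cre driven by Cd4 is active in T cell precursors, which pass through a stage that expresses Cd4 before some of them become CD8+ cells. Each mouse gave 1 library per time, and KI and wt mice were run side by side as replicates 1, 3 and 5, which are the numbers of the experiments. KI and wt mice were male in experiments 1 and 3 and female in experiment 5, and both KO mice (experiments 1 and 5) were female. Ages are not given in the labels. Neither wt controls from the KO line nor KO cells at 24 h were analysed here, so line and genotype cannot be told apart in comparisons of KO with wt, and sex differs too. The series title concerns the rise of anabolism upon activation, and sterol and isoprenoid synthesis is one anabolic pathway.

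Sterols and isoprenoids are built from acetyl-CoA. Acat2 joins acetyl-CoA to acetoacetyl-CoA, and Hmgcs1 makes HMG-CoA, from which mevalonate is formed. Mvk and Pmvk phosphorylate mevalonate in turn, and Mvd decarboxylates the product to isopentenyl diphosphate, the basic isoprene unit. Idi1 turns this unit into its reactive isomer, Fdps joins units into farnesyl diphosphate, and Ggps1 adds a further unit to give geranylgeranyl diphosphate. Farnesyl diphosphate feeds the sterol branch, while farnesyl and geranylgeranyl groups are attached to small GTPases and other proteins. Most genes of sterol synthesis are known targets of the transcription factor SREBP-2, which is released when membrane sterol runs low, and activated T cells draw on this pathway as they grow and divide.

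The genes lie at these positions of the build GRCm38, given as whole gene spans in the deposited tables: Acat2 on chromosome 17, 12942890 to 12960747, minus strand. Hmgcs1 is on chromosome 13, 119690379 to 119708260, plus strand. Mvk is on chromosome 5, 114444269 to 114460591, plus strand, and its start lies 209 bases from that of Mmab, which runs the other way. Pmvk is on chromosome 3, 89454541 to 89469013, plus strand, and Fdps is on the same chromosome at 89093588 to 89101959, minus strand. Mvd is on chromosome 8, 122433601 to 122443422, minus strand. Idi1 and Ggps1 are both on chromosome 13, at 8885501 to 8892451 on the plus strand and at 14050659 to 14063488 on the minus strand. The positions were the same in the GENCODE annotation given for this build.

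Of the 8 genes, 7 had a promoter window in RefSeq (GRCm38.p6, 250 bases before the start and 50 after it), and Fdps had none. The 3 stretches below end at the base before the RefSeq start. Hmgcs1 is shown because it alone held a sterol element, Mvk because it shares its upstream interval with Mmab, and Mvd because it had the smallest p-value of the members between KI and wt at 48 h. Capitals mark a sterol regulatory element, searched as TCACNCCAC, and CCAAT boxes, both on either strand. The stretches are Hmgcs1 (chr13:119690101-119690350, plus strand), the whole interval between the starts of Mmab and Mvk (chr5:114444061-114444268, plus strand) and Mvd (chr8:122443423-122443672, minus strand).
Hmgcs1: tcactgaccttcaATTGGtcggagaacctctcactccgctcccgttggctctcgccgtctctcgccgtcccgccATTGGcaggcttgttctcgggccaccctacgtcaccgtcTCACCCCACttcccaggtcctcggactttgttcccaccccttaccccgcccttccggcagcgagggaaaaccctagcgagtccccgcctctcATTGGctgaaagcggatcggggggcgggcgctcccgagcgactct
Mvk: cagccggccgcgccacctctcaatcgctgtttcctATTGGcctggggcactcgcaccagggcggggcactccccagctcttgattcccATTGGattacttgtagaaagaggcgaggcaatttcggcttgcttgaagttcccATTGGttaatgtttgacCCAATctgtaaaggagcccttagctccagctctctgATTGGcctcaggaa
Mvd: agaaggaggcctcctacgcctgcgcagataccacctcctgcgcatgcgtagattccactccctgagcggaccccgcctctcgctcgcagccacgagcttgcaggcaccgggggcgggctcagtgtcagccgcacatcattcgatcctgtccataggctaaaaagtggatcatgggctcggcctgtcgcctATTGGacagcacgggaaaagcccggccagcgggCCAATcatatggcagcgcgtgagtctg
The sterol element stood in Hmgcs1 alone among the members, at -137 to -129 counted from -1 as the last base before the start, and in 1.24% of all 32851 windows. CCAAT stood in 6 members (Hmgcs1, Mvk, Pmvk, Mvd, Idi1 and Ggps1), against 37.4% of all windows, and the interval shared by Mvk and Mmab held 5 copies. GGGCGG, the box bound by Sp factors, stood in 5 members (35.7% of windows), and the E-box CACGTG in 0 (7.15% of windows). None of these motifs overlapped another in the stretches printed. Such a match is a description of the letters only. The window of Ggps1 held 3 CCAAT boxes and that of Acat2 held 0.

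The 4 genes Hmgcs1, Mvk, Pmvk and Mvd have no near-identical copy in the count table, but 3 of the others do, and their counts are uncertain for that reason. Fdps matches the processed pseudogenes Gm3571 (98.9% over 1062 bases), Gm5873 (96.7%) and Gm8163 (96.1%), and shares 1124 exonic bases with the same-strand gene Gm43738. The counts given to Gm3571 were 182% of those given to Fdps, and those of Gm43738 158%. Idi1 matches the pseudogene Gm13502 at 100% over 684 bases, and that pseudogene held 154% of the counts of Idi1. Acat2 matches its paralogue Acat3 at 97.7% over 1477 bases, with 344% of its counts, and a part of Tcp1 at 98.7% over 445 bases. Ggps1 shares 257 exonic bases with the opposite-strand gene Arid4b, and whether counting used strand is not given in the sources used here. The main results for Fdps and Idi1 are therefore also given with their copies added, where the pool of Fdps included Gm43738. Acat2 was not pooled with Acat3 or with Tcp1, which held 1580% of the counts of Acat2. The values of Acat2 hold for the reads given to that gene alone.

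Total counts ran from 62551905 to 93489115 a library. Tcaim, the targeted gene, held 138 to 145 CPM (counts relative to the library total, scaled by TMM) in naive KI libraries against 14.6 to 15.2 in wt, and 229 to 260 against 9.03 to 12 at 48 h (edgeR log2 fold change 4.58, adjusted p = 2.55e-10). Libraries labelled KO were not called different from wt, at 14.9 and 19.5 CPM naive and 11.7 and 5.99 at 48 h (edgeR adjusted p = 1 and 0.84). Of these, replicate 1 at 48 h stood apart from all others, at 127 on the second principal component of 21183 genes (8.11% of variance) where the next highest library, wt 48 h replicate 3, lay at 61.3. Replicate 1 labelled KO also carried more RNA of other lymphocytes, with 1170 CPM summed over 5 B cell genes naive against 134 to 425 in all other naive libraries, and 184 CPM of Cd4 against at most 54.8. Cd8a was high throughout, at 697 to 1500 CPM, and none of the marker lists had a gene at 0 in all libraries of a group. The part of these differences in the results was not tested.

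**Figure D1:**
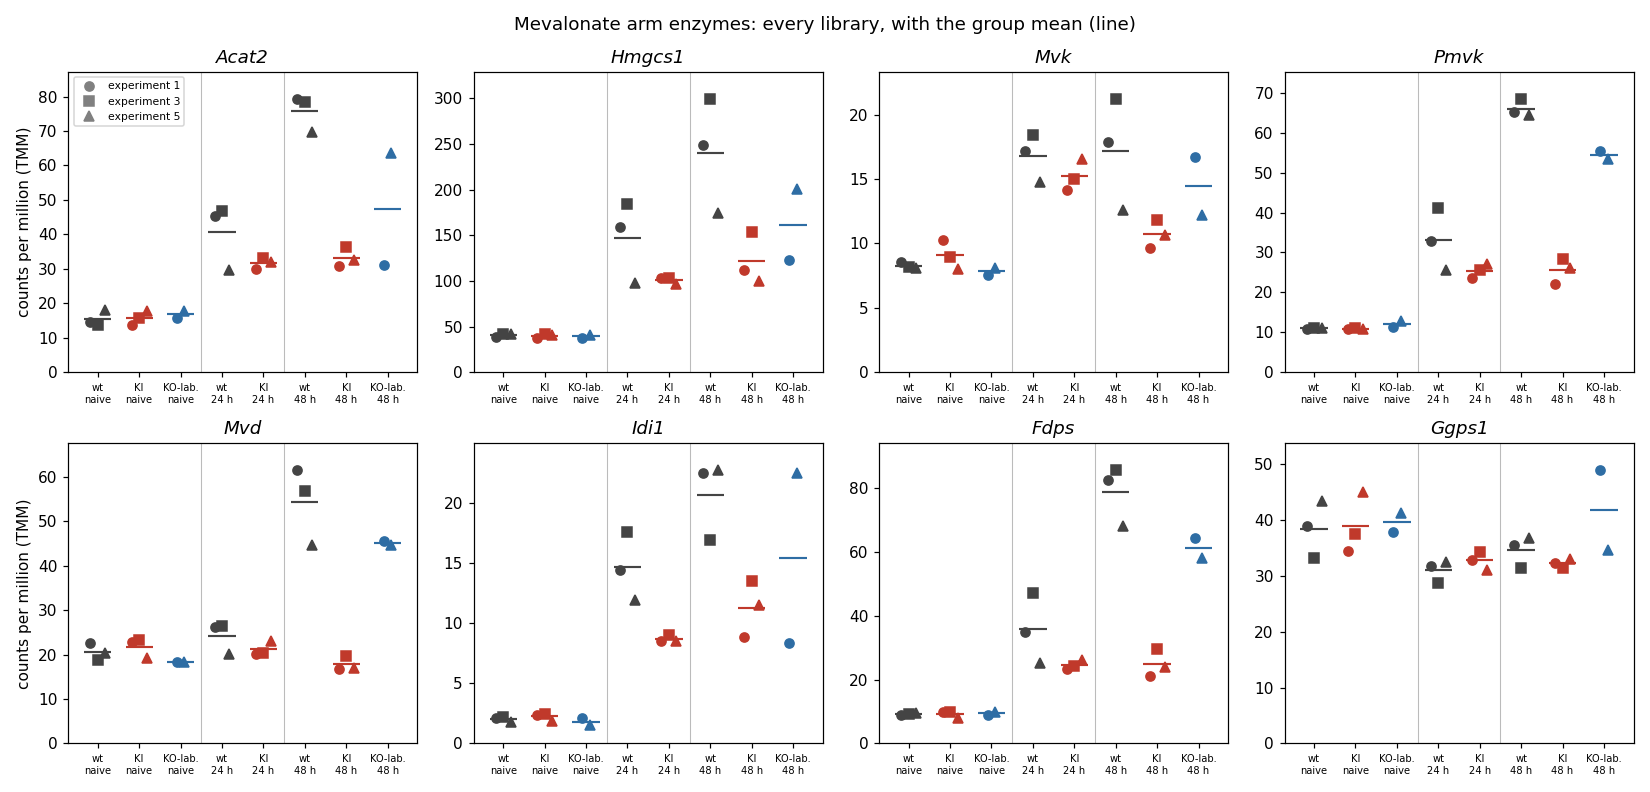
TMM-scaled CPM (linear axis from 0) of the 8 enzymes in all 22 libraries by genotype and time, 1 panel a gene; circles, squares and triangles are experiments 1, 3 and 5 and lines are group means. At 48 h all KI points lie below all wt points in each panel but that of Ggps1.

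In naive wt cells Ggps1, Hmgcs1 and Mvd had the highest levels of the arm, and Idi1 the lowest. Levels between genes are compared on the deposited FPKM scale, which divides by 1 value per gene, taken here as its length. In wt naive cells the order was Ggps1 at 19.3 ± 2.39 FPKM, Hmgcs1 at 14.9 ± 0.848, Mvd at 13.9 ± 1.25, Pmvk at 7.63 ± 0.166 and Acat2 at 7.22 ± 1.03 (SD, n = 3). Mvk at 3.68 ± 0.117, Fdps at 2.62 ± 0.0827 and Idi1 at 0.692 ± 0.0767 FPKM came last. The libraries of Hmgcs1 and Mvd overlapped, as did those of Pmvk and Acat2, and the other neighbours in this order did not. At 48 h Hmgcs1 led in wt with 83.1 ± 21.3 FPKM, followed by Pmvk at 43.0 ± 1.17, Mvd at 34.5 ± 5.52, Acat2 at 33.3 ± 2.29 and Fdps at 20.9 ± 2.42. Ggps1, first when naive, was now sixth at 16.4 ± 1.38 FPKM, ahead of Mvk at 7.19 ± 1.79 and Idi1 at 6.59 ± 1.08, and at this time the pairs Mvd and Acat2, and Mvk and Idi1, overlapped. The low places of Fdps and Idi1 hold for the reads given to these genes, without the copies named above.

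**Figure D2:**
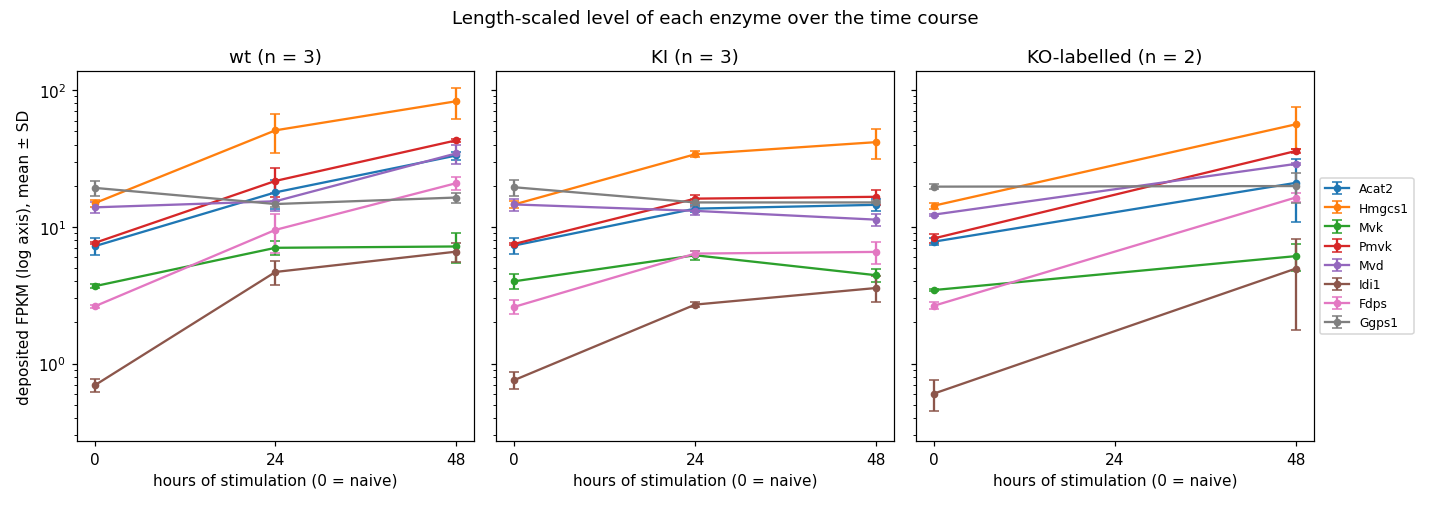
Deposited FPKM (log axis, mean with SD bars) of the 8 enzymes against hours of stimulation in wt, KI (3 libraries a point) and libraries labelled KO (2 a point, no 24 h libraries). In wt all lines but that of Ggps1 end above their start, and in KI the line of Mvd goes from 14.6 to 11.3 FPKM.

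In wt cells 6 of the 8 enzymes were higher after 24 h of stimulation and 7 after 48 h. In such bulk libraries fewer cells of a type and less RNA per cell cannot be told apart. Acat2 rose from 13.7, 14.6 and 18.1 CPM naive to 29.8, 45.2 and 46.7 at 24 h and 69.8, 78.5 and 79.2 at 48 h, with no overlap between times. Hmgcs1 rose from 38.1 to 41.8 CPM naive to 97.2 to 185 at 24 h and 174 to 299 at 48 h, where the later times overlapped. Of the 8 genes, 6 were called higher at 24 h (edgeR quasi-likelihood test, Benjamini-Hochberg adjusted p under 0.05), against 26.3% of all tested genes called higher. At 48 h 7 were called higher, against 29.6% of all genes. Counted in either direction, DESeq2 and limma each called 7 members at 24 h and 7 at 48 h. The largest fold changes at 48 h were those of Idi1, 10.1-fold (log2 3.34, SE 0.295, adjusted p = 3.11e-08), and Fdps, 8.49-fold (log2 3.09, SE 0.192, adjusted p = 4.38e-10). With the copies added these log2 values became 3.88 and 2.33. The pool of Fdps included Gm43738, which had 39.4 CPM in naive wt cells against 9.26 for Fdps. Gm43738 rose by log2 1.13 to 48 h, and the pseudogenes by 3.19 (Gm3571), 3.23 (Gm5873) and 2.39 (Gm8163). The part of read assignment in the lower value of Fdps was not tested. Pmvk rose 6-fold, Hmgcs1 5.93-fold, Acat2 4.90-fold, Mvd 2.64-fold and Mvk 2.08-fold (edgeR adjusted p from 1.83e-10 for Pmvk to 6.35e-05 for Mvk).

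The members differed in when they rose. Mvk, the first kinase, had 16.8 ± 1.86 CPM at 24 h and 17.2 ± 4.35 at 48 h in wt (SD, n = 3). Mvd, the decarboxylase, was called higher only after 24 h: it had 18.8, 20.3 and 22.7 CPM naive, 20.1, 26.3 and 26.3 at 24 h, and 44.7, 56.8 and 61.4 at 48 h. Its groups overlapped up to 24 h and separated after it. From 24 h to 48 h in wt, 4 genes were called higher, against 4.06% of all genes. These were Mvd (log2 1.16), Fdps (1.14), Pmvk (0.99) and Acat2 (0.90), with edgeR adjusted p between 0.000244 and 0.0127. Without wt replicate 1 only 2 of them remained called, as Acat2 had an adjusted p of 0.137 and Fdps one of 0.0545. Ggps1, which makes the precursor for geranylgeranylated proteins, was not called in any of these comparisons, at 33.2 to 43.4 CPM naive, 28.8 to 32.5 at 24 h and 31.5 to 36.8 at 48 h in wt. Its log2 change at 24 h (-0.31, SE 0.137) missed the edgeR threshold with an adjusted p of 0.0683 and passed it with upper-quartile scaling (-0.49, adjusted p = 0.00569), library size alone (-0.38, 0.0202) and RLE factors (-0.37, 0.0311). With TMM and the libraries labelled KO left out it passed as well (-0.32, edgeR adjusted p = 0.0272). At 48 h it was called lower in wt with upper-quartile scaling alone among these (-0.37, adjusted p = 0.025).

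Upper-quartile scaling moved the median log2 change of all genes in wt from -0.048 to -0.232 at 24 h and from -0.04 to -0.259 at 48 h, and in KI from 0.012 to -0.158 and from -0.022 to -0.202. In libraries labelled KO the 48 h median moved from 0.006 to -0.17. The share of calls that were higher then fell from 54.5% to 42.5% and from 52.5% to 41.7% in wt, from 59.2% to 44.9% and from 54.6% to 42.9% in KI, and from 53.7% to 43.1% in libraries labelled KO. Against the medians of all genes under TMM, the 8 members had a median log2 change of 1.49 in wt at 24 h and 2.43 at 48 h.

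In KI cells most of the arm rose by 24 h, Mvd and Ggps1 being the members not called by edgeR, and no further rise was called. Of the 8 genes 6 were called higher at 24 h (22.9% of all genes) and 5 at 48 h (26.6%), with median log2 changes of 1.12 and 1.16. Counted in either direction, DESeq2 and limma each called 7 members at 24 h and 7 at 48 h. Ggps1 had 34.5 to 45.1 CPM naive, 31.1 to 34.4 at 24 h and 31.5 to 33.1 at 48 h. Its log2 changes from naive were -0.25 (edgeR adjusted p = 0.156) and -0.27 (0.11). Its stimulated KI libraries all lay below the naive ones, a pattern found in 27.3% of all genes at 24 h and 32% at 48 h. Between 24 h and 48 h no member was called (2.68% of all genes were called in either direction). In that step edgeR gave 1 member an unadjusted p under 0.05, against 3286 of all 21183 genes, and DESeq2 and limma called 0 members. Pmvk shows the pattern: its KI libraries had 10.7, 10.8 and 11.1 CPM naive, 23.5, 25.5 and 27.2 at 24 h, and 22.2, 26.2 and 28.4 at 48 h. The naive libraries lay below all others, while those at 24 h and 48 h overlapped. Fdps had log2 changes from naive of 1.41 at 24 h and 1.43 at 48 h in KI. With its copies added these were 0.72 and 0.77, and it was called by edgeR in each case. Mvk is the member with the unadjusted p, with 8.01 to 10.2 CPM naive, 14.2 to 16.6 at 24 h and 9.67 to 11.8 at 48 h (log2 change after 24 h -0.51, SE 0.176, edgeR adjusted p = 0.139). Mvd was not called higher in KI at either time, with 19.2, 22.9 and 23.3 CPM naive and 16.9, 17.1 and 19.7 at 48 h (log2 -0.28, SE 0.14, edgeR adjusted p = 0.101, and called lower by DESeq2 and limma, at adjusted p of 0.0464 and 0.0333).

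The comparison of KI with wt was made at each time. Naive, 0 of 8 members were called, against 0.0803% of all genes. By edgeR 0 had an unadjusted p under 0.05, against 440 of all 21183 genes. DESeq2 and limma also called 0. The log2 fold changes lay between -0.02 and 0.14, and the KI and wt libraries overlapped for every member.

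At 24 h, 7 of 8 members had lower means in KI, and 0 were called (0.00472% of all genes, which is 1 gene). The same count of 0 came from DESeq2 and limma. In edgeR 4 members (Fdps, Idi1, Pmvk and Hmgcs1) had an unadjusted p under 0.05, against 1909 of all 21183 genes. The estimates ran from -0.75 for Idi1 (SE 0.268, edgeR adjusted p = 0.445) to 0.08 for Ggps1, with a median of -0.37. Idi1 was the only member whose KI libraries (8.49, 8.52 and 9.02 CPM) all lay below those of wt (11.9, 14.4 and 17.5), a pattern found in 9.41% of all genes. The other members split by experiment. In experiments 1 and 3 the KI library lay below its wt partner in Acat2, Hmgcs1, Mvk, Pmvk, Mvd, Idi1 and Fdps. In experiment 5 the KI library held 26.2 CPM of Fdps and the wt library 25.0, which is a log2 difference of 0.07, and for Hmgcs1 they held 96.7 and 97.2. For Fdps the log2 difference was -0.58 in experiment 1 and -0.95 in experiment 3. The wt library of experiment 5 was the lowest of the 3 wt libraries in these 7 genes.

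Genes of the cell cycle are given beside this. The summed level of 10 proliferation genes at 24 h was 3370, 4700 and 2320 CPM in wt of experiments 1, 3 and 5 and 2240, 3000 and 1890 in KI, lowest in experiment 5 in both genotypes. By edgeR 0 of the 10 genes were called at 24 h, with a median log2 fold change of -0.62. At an unadjusted p under 0.05 there were 8, all lower in KI, against 1909 of all 21183 genes. At 48 h the summed level was 3880 to 4570 CPM in wt and 3690 to 3870 in KI. By edgeR 0 of the 10 genes were then called, with a median log2 fold change of -0.24. At an unadjusted p under 0.05 there were 0, against 3801 of all genes. B cell genes summed to 45.5 to 134 CPM in wt and 102 to 216 in KI at 48 h. The part of either in the results on the arm was not tested.

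**Figure D3:**
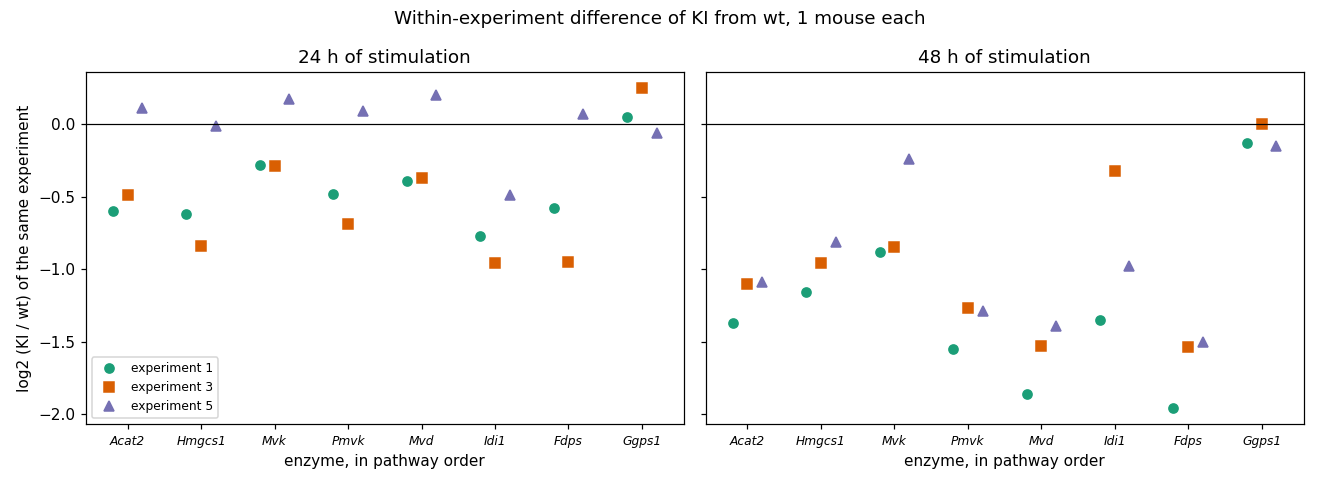
Log2 ratio of KI to wt within each experiment (1 mouse of each genotype) for the 8 enzymes at 24 h and 48 h. At 24 h experiment 5 lies near 0 or above it except for Idi1 at -0.49, and at 48 h all values but those of Ggps1 lie between -1.96 and -0.24.

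At 48 h 6 of the 8 enzymes were lower in KI cells than in wt, most of all Fdps, Mvd and Pmvk. In Fdps the wt libraries had 68.0, 82.4 and 85.5 CPM and the KI libraries 21.1, 24.1 and 29.5. In Mvd they had 44.7, 56.8 and 61.4 against 16.9, 17.1 and 19.7, and in Pmvk 64.4, 65.1 and 68.4 against 22.2, 26.2 and 28.4. In these 3 genes the highest KI library held less than the lowest wt library. The edgeR fold changes were 3.16-fold lower for Fdps (log2 -1.66, SE 0.181, adjusted p = 0.000111), 3.04-fold for Mvd (-1.60, SE 0.143, adjusted p = 1.16e-05) and 2.57-fold for Pmvk (-1.36, SE 0.14, adjusted p = 5.48e-05). By p-value these 3 were among the 5 leading genes of the whole table, Tcaim being the first. With its copies added Fdps had a log2 fold change of -1.47 (edgeR adjusted p = 0.00016).

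The entry of the pathway was lower as well. Acat2 had 69.8, 78.5 and 79.2 CPM in wt and 30.7, 32.7 and 36.5 in KI (log2 -1.19, SE 0.21, edgeR adjusted p = 0.00381). Its paralogue Acat3, which shares most of its sequence, had 183 ± 4.35 CPM in wt and 153 ± 21.9 in KI (SD, n = 3, log2 -0.25, edgeR adjusted p = 0.271). The counts of Acat2 and Acat3 were not pooled, so the change of their sum was not tested. Hmgcs1 had 174, 248 and 299 CPM in wt and 99.6, 111 and 154 in KI (log2 -0.99, SE 0.226, edgeR adjusted p = 0.0185), with no overlap between the groups. Mvk had 12.6, 17.8 and 21.2 CPM in wt and 9.67, 10.6 and 11.8 in KI (log2 -0.69, SE 0.176, edgeR adjusted p = 0.0339), where the lowest wt library, replicate 5, lay just above the highest KI library. Idi1 missed the threshold with 16.9, 22.4 and 22.7 CPM in wt and 8.82, 11.5 and 13.5 in KI (log2 -0.87, SE 0.269, edgeR adjusted p = 0.0759, and 0.0627 with its copies added). Ggps1 had 31.5, 35.5 and 36.8 CPM in wt and 31.5, 32.4 and 33.1 in KI, which overlapped (log2 -0.10, SE 0.137, edgeR adjusted p = 0.773).

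Counted together, 6 of 8 members were called lower at 48 h, against 1.91% of all tested genes. All KI libraries lay below all wt libraries in 7 of 8, against 9.78% of all genes. The median log2 fold change of the 8 was -1.09, that of all genes 0. Without KI replicate 1, or without wt replicate 1, 3 members remained called, and these were Fdps, Mvd and Pmvk in both cases, while the calls over all genes went from 889 to 89 or 114. Hmgcs1 then had an edgeR adjusted p of 0.186 or 0.12, Mvk one of 0.251 or 0.192 and Acat2 one of 0.0694 or 0.0502. Of the 6 fits without a KI or wt mouse, the call was lost in 5 for Mvk, 4 for Hmgcs1 and 2 for Acat2. With only the groups compared in the fit, 4 members and 109 of 18257 genes were called, and Hmgcs1 (edgeR adjusted p = 0.0966) and Mvk (0.178) were not. Leaving the libraries labelled KO out of the fit gave 7 calls, Idi1 included (edgeR adjusted p = 0.007). The log2 fold change of Idi1 was -0.87 with and without these libraries. The share of all genes called in that fit is not reported here, so the added call cannot be set beside it.

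**Figure D4:**
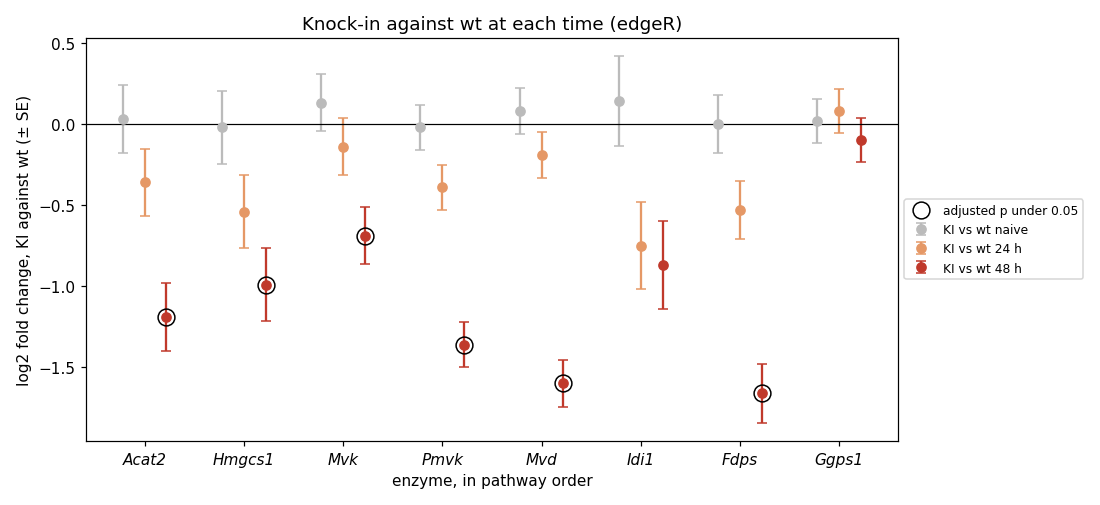
Change of KI against wt by edgeR, on the log2 scale (points, bars are SE) for the 8 enzymes in pathway order, naive, at 24 h and at 48 h; rings mark an adjusted p under 0.05. Naive points lie between -0.02 and 0.14, 24 h points between -0.75 and 0.08, and 6 of the 48 h points, down to -1.66, carry a ring.

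The test of the response itself, asking whether the change from naive to 48 h differed between KI and wt, gave 3 calls, all lower in KI, against 0.25% of all genes called lower. These were Mvd (log2 -1.68, SE 0.199, adjusted p = 0.000927), Pmvk (-1.35, SE 0.197, adjusted p = 0.00627) and Fdps (-1.66, SE 0.253, adjusted p = 0.00766; with copies added -1.56 and 0.00678), all by edgeR. All 8 estimates were negative, with a median of -1.11. Without KI replicate 1 none of the 3 passed (edgeR adjusted p from 0.085 to 0.196), and without KI replicate 5 or wt replicate 1 only Mvd did. For the change from naive to 24 h, 0 members were called, where the share of all genes called was 0%. There edgeR gave 2 members (Idi1 and Fdps) an unadjusted p under 0.05, against 692 of all 21183 genes. DESeq2 and limma called 0 members.

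For the step from 24 h to 48 h the one call among all genes, 0.00472% of them, was Mvd (log2 -1.41, SE 0.199, edgeR adjusted p = 0.0234). In each of 5 of the 6 fits without a KI or wt mouse this call was lost, with edgeR adjusted p up to 0.745 without KI replicate 5, and it remained without wt replicate 5. DESeq2 called 3 members in this step, and 5 had an unadjusted p under 0.05 in edgeR, against 1203 of all 21183 genes.

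Libraries labelled KO also gained in 7 of the 8 enzymes. From naive to 48 h, 7 members were called higher (23.7% of all genes), with a median log2 change of 1.77. Against wt, 0 were called naive (0.0236% of all genes) and 0 at 48 h (0.0283%). In edgeR 0 members naive and 2 at 48 h (Acat2 and Hmgcs1) had an unadjusted p under 0.05. Of all 21183 genes 285 naive and 1462 at 48 h had one. DESeq2 and limma called 0 members at both times. The pair was split at 48 h: replicate 1, the library that stood apart, had 31.0 CPM of Acat2, 122 of Hmgcs1 and 8.34 of Idi1, and replicate 5 had 63.7, 200 and 22.4. In Pmvk (55.4 and 53.5 CPM), Mvd (45.5 and 44.6) and Fdps (64.4 and 58.1) the same libraries lay close together and above every KI library. Libraries labelled KO were not tested against KI. At 48 h both lay below every wt library in Acat2, Pmvk and Fdps, a pattern found in 4.71% of all genes. Of the 8 members 7 had lower means than in wt at that time, with a median log2 fold change of -0.32. Without KO replicate 5, when replicate 1 is assumed to vary like the other groups, 4 members were called against wt at 48 h, as were 21.5% of all genes tested in that fit (4770 of 22144). These were Acat2 (log2 -1.29, edgeR adjusted p = 0.00147), Idi1 (-1.31, 0.00369), Hmgcs1 (-0.98, 0.0325) and, higher, Ggps1 (0.50, 0.0382). Without KO replicate 1 none was called.

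The steps beside the arm were read from lists of related genes. In the sterol branch, which takes farnesyl diphosphate to cholesterol, 9 of 12 genes were called lower in KI at 48 h and 0 higher (edgeR). Of all tested genes 1.91% were called lower and 2.29% higher. The median log2 fold change of the 12 genes was -1. The 4 leading ones by p-value were Fdft1, which makes squalene (log2 -1.19, adjusted p = 5.2e-05), the demethylating oxidase Msmo1 (-1.44, 0.000111), the cyclase Lss (-1.50, 0.000941) and Nsdhl (-1.14, 0.00167). Genes of sterol sensing and transport were called in both directions. On the log2 scale the sterol carrier Stard4 fell by 0.96 (edgeR adjusted p = 0.00122) and Insig1, which holds SREBP in the endoplasmic reticulum, by 0.96 (0.0192). Mylip, a ubiquitin ligase, was called higher (log2 0.90, adjusted p = 0.00668). The next 3 were named after their values were seen. Srebf1 was called lower and Abca1, the cholesterol exporter, higher. Srebf2, the gene of SREBP-2, had a log2 fold change of -0.41 and was not called (adjusted p = 0.224). Without KI replicate 1, or without wt replicate 1, 4 sterol-branch genes and at most 1 of the sensing genes named here remained called.

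The users of isoprenoids were read in the same way. Of 20 genes for protein prenylation and for dolichol, ubiquinone, heme A and related products, 0 were called lower and 1 higher in KI at 48 h by edgeR, against 1.91% and 2.29% of all genes, with a median of -0.08. At an unadjusted p under 0.05 there were 7, of which 5 were lower, against 3801 of all 21183 genes, and DESeq2 called 3 of the 20 and limma 2. The call was Zmpste24, which trims prenylated proteins (log2 0.87, adjusted p = 0.0323). Rabggta, a subunit of the enzyme that prenylates Rab proteins, had 0.63 (adjusted p = 0.0518), Coq2 -0.46 (0.0846) and Rabggtb -0.39 (0.135). On the supply side Slc25a1, the carrier that exports citrate from mitochondria, was called lower (log2 -0.66, edgeR adjusted p = 0.0135). Acly, which cleaves that citrate to acetyl-CoA, had -0.45 (0.137) and Bdh1 had -0.36 (0.269). Whether the lists differ from each other was not tested.

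**Figure D5:**
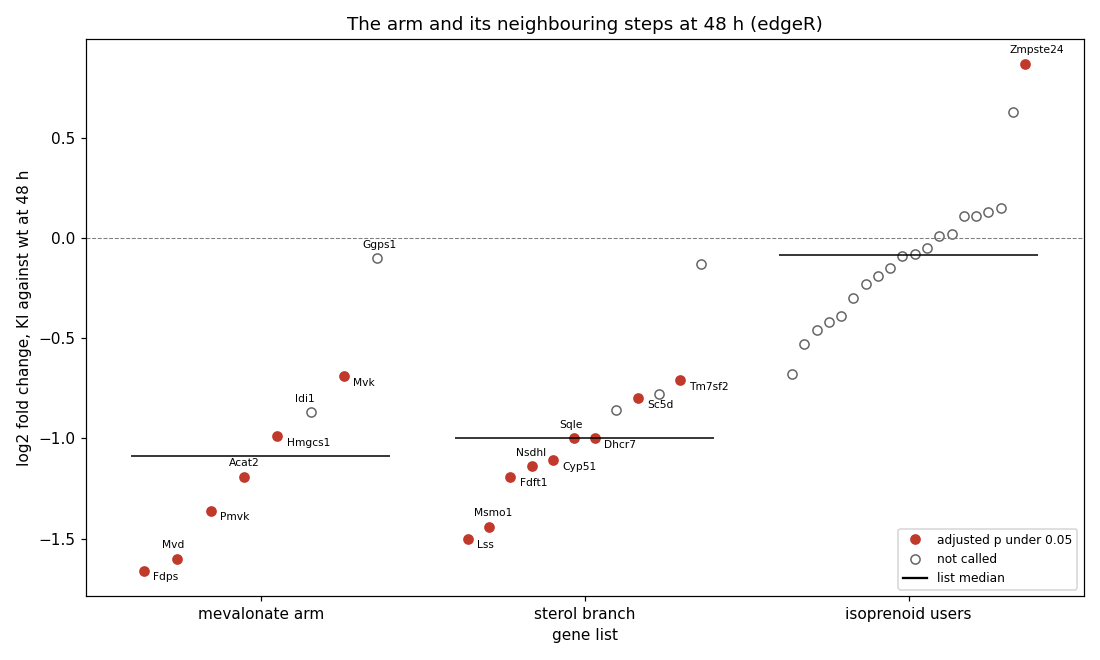
Change of KI against wt at 48 h by edgeR, on the log2 scale, for the mevalonate arm, the sterol branch and the users of isoprenoids, 1 point a gene, filled where the adjusted p is under 0.05, with list medians as lines. The medians are -1.09 for the arm, -1 for the sterol branch and -0.08 for the users of isoprenoids.

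Genomic neighbours and copies gave further readings. Mmab, a cobalamin enzyme that shares the short interval with Mvk, had 38.7 ± 8.23 CPM in wt and 24.3 ± 2.08 in KI at 48 h (SD, n = 3) and was called lower (log2 -0.67, edgeR adjusted p = 0.0193). In KI its level at 24 h was 23.2 ± 1.48 CPM. Arid4b, which shares exonic bases with Ggps1, was not called between KI and wt at 48 h (log2 0.28, edgeR adjusted p = 0.301), and with activation it fell in wt (-1.07, adjusted p = 3.5e-06) where Ggps1 was not called. The Fdps copies Gm3571 (log2 -1.56, edgeR adjusted p = 0.000266) and Gm5873 (-1.66, 0.000708) were lower in KI than in wt at 48 h, as Fdps was. Gm43738, whose exons are shared with Fdps in part, had 86.4 ± 10.1 CPM in wt and 39.3 ± 4.49 in KI (-1.14, 0.000466). These genes cannot be counted as independent of Fdps, since reads may have been split among them.

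Within the arm the members moved together to unequal degree. Across all 22 libraries, Pearson's r of a member's log2 CPM with the mean of the other 7 was 0.991 for Fdps, 0.989 for Pmvk, 0.972 for Hmgcs1, 0.965 for Acat2, 0.92 for Idi1, 0.84 for Mvk, 0.73 for Mvd and -0.397 for Ggps1. Among the 14 stimulated libraries the value for Mvd was 0.94, and it was 0.452 for Mvk and 0.189 for Ggps1. The libraries share genotype groups, mice and the activation step, so these are descriptions. Outside the arm, the genes most like the mean of the members over 22 libraries, among 11763 genes with a mean log2 CPM of at least 2, were Gm3571 (r = 0.993), Gm5873 (0.992), Gm6781 (0.986), Sc5d (0.985) and Fdft1 (0.984). Gm3571 and Gm5873 are copies of Fdps, and Gm6781 is a processed pseudogene that matches Fdft1 at 97.4% over 1249 bases. Over the 14 stimulated libraries they were Lss (0.98), Gm5873 (0.975), Gm3571 (0.974), Msmo1 (0.971) and Insig1 (0.967).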

How the data were processed

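The deposited count table held whole-number gene counts, and edgeR was run on these. Per the submitters' processing notes, the tools named were bcl2fastq 2.20.0, TopHat2 2.1.0, Bowtie2 2.2.5, SAMtools 0.1.19, featureCounts and DESeq2 1.6.3, and the builds GRCm38 and mm10. Their roles, the annotation release and the strand setting are not given in the sources used here. The deposited log2 values equalled log2 of the count over 1 factor per library plus 1 (largest relative deviation 3.64e-14). Deposited FPKM equalled the same normalized counts over 1 value per gene, which was not compared with gene lengths. The FPKM served only to compare levels between genes. A further deposited log2 table of variance-stabilised values served an alternative with limma 3.58.1. No columns of other samples were used (0).

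Genes were kept with filterByExpr (minimum count 10, total 15), scaled by TMM and fitted as 8 group means over all 22 libraries (14 residual degrees of freedom) with edgeR 4.0.16 in R 4.3.3. Quasi-likelihood tests were adjusted by Benjamini-Hochberg over 21183 genes and called under 0.05. The script was tested on simulated data. SE is the standard error of a log2 change. CPM are counts over the TMM-scaled library total. Copies were found with blastn 2.17.0 on GENCODE transcripts (at least 95% identity over 400 bases), and neighbours within 1000 bases of a start or overlapping. Alternatives were DESeq2 1.42.0, limma, other scalings, no filter, blocks, subsets and each mouse left out; pooled copies, the fit without libraries labelled KO and the mouse block for interactions were added after seeing the data.

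Replicate numbers were taken as pairing the samples because they stand for an experiment in the labels. As a check, each library's departure from its group's mean was correlated across genes. The median r was 0.22 over the 9 pairs of KI with wt that share an experiment (8 above 0.1) and -0.178 over the 18 that do not. Departures from a group mean cancel within the group, so the sign of the second value largely follows from the first. KI and wt mice of an experiment also shared their sex, and the part of sex was not tested. Adding the experiment as a replicate block left 6 members called between KI and wt at 48 h.

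The members and gene lists were chosen with earlier results of these data known. From each list at most 4 genes, those with the smallest p-value in KI against wt at 48 h, are named, and Srebf1, Srebf2 and Abca1 were added outside this rule. Some genes of the sterol-sensing and supply lists, called ones among them, are not reported here, so no count or median of those lists is given. The 5 genes most like the members were taken by Pearson's r. In the main fit p-values rest on 22 libraries from 8 mice, which the labels name, with no term for mouse. Libraries of the same mouse at different times were thus treated as independent in comparisons of times and in interactions. Within a time each library came from its own mouse, though the estimate of spread was shared over all libraries.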

Additional observations from a re-analysis of the deposited data

Results flagged for a closer look

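In 3 genes of the arm the response to 48 h of stimulation differed between KI and wt by the edgeR interaction test, with log2 differences of -1.68 for Mvd, -1.66 for Fdps and -1.35 for Pmvk. For Mvd the change from 24 h to 48 h differed as well, by -1.41. In all 4 cases each wt mouse rose relative to the KI mouse of its experiment, and in Mvd each KI mouse fell. The cases were picked by their calls in these same libraries, so this adds no separate evidence. The call of Mvd from 24 h to 48 h was kept in 11 of 17 alternatives. From naive to 48 h the call of Mvd was kept in 16 of 17, and those of Fdps and Pmvk in 14 of 17 each. No group held enough libraries for a test of single outlying values.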

How the results depend on the processing

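Over all comparisons and alternatives, the count of called members stayed within 1.5 times of the reported one in 206 cases, was lower in 14 and higher in 3. Among the 206 are counts of 0 that stayed 0, and a fall from 6 to 4 also counts as within 1.5 times. Shares of all genes called under the alternatives are given only where they are named above. With only the groups compared in the fit, 4 members were called between KI and wt at 48 h, 2 members were called in wt from 24 h to 48 h, 1 in KI from 24 h to 48 h, 4 in libraries labelled KO from naive to 48 h and 0 in the interaction from 24 h to 48 h, where DESeq2 called 3.

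Leaving out 1 mouse at a time gave 3 to 6 members called between KI and wt at 48 h, 2 to 4 in wt from 24 h to 48 h, 0 to 3 in the interaction from naive to 48 h and 0 to 1 in that from 24 h to 48 h. For libraries labelled KO against wt at 48 h the range was 0 to 4. The cause was not tested. Of the members' own log2 fold changes that were called, none reversed.

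The experiment as a replicate block moved the count in wt from 24 h to 48 h from 4 to 5 and the mouse as a block moved the interaction from naive to 48 h from 3 to 4. Without the libraries labelled KO that interaction also gave 4. With 2 or 3 mice a group, a missed threshold does not show that groups were alike.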
